A study of Mus musculus with 9 samples.

Results

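The 10 genes described here encode ligands and receptors of vascular endothelial growth factor (VEGF) and angiopoietin signaling, together with an endothelial surface protein: Vegfa, Vegfb, Vegfc, Kdr, Flt1, Nrp1, Angpt1, Angpt2, Tek and Emcn. They were listed by gene symbol, and all 10 of 10 were measured among 19938 genes. Every member had 1 probeset, the group of probes that an array reads as 1 value. The cells were primary urogenital sinus mesenchymal cells, the connective tissue precursors of the prostate, at first passage from male CD-1 mouse fetuses of gestation day 17. After 3 days in charcoal-stripped serum, cells received ethanol vehicle, 10 pM or 100 pM 17beta-estradiol (E2) for 4 days, and 690 pM dihydrotestosterone (DHT) was present in all 3 groups. Each group had 3 arrays (Affymetrix Mouse Gene 1.0 ST). The mesenchymal fraction had been separated from epithelium by settling rather than by sorting, and the study checked both fractions by staining for cytokeratins and vimentin, markers of epithelium and mesenchyme. No label says that the replicates came from separate litters or cultures, so the spread behind each p-value is that of these samples and may be technical.

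VEGF proteins are secreted ligands that bind receptor tyrosine kinases, mainly on endothelial cells. Kdr (VEGFR2) carries most of the growth and migration signal, Flt1 (VEGFR1) binds VEGFA tightly with weak kinase activity and has a soluble decoy form, and Nrp1 (neuropilin 1) is a co-receptor that also binds semaphorins. The angiopoietins act on the receptor Tek (Tie2), where angiopoietin 1 is an agonist that stabilizes vessels and angiopoietin 2 is often an antagonist. In most tissues mesenchymal cells make ligands such as VEGFA and angiopoietin 1, while the receptors and Emcn (endomucin, a sialomucin) are known mainly from endothelium.

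The members that changed with estradiol were Kdr, Emcn and Angpt2. At 100 pM, Kdr fell by 0.98 on the log2 scale from its vehicle level, Emcn rose by 0.82 and Angpt2 by 0.67, which is 0.508-fold, 1.77-fold and 1.59-fold on a linear scale. The ligand genes Vegfa, Vegfb and Vegfc, the receptor genes Flt1, Nrp1 and Tek, and Angpt1 did not pass the test at either dose. Of the 10 members, 2 rose and 1 fell at 100 pM against vehicle, where 0.446% of all genes rose and 0.687% fell (1.13% in either direction; limma, Benjamini-Hochberg adjusted p below 0.05 over all genes). The members were listed with earlier results for these arrays known, so their count is a description of them.

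**Figure D1:**
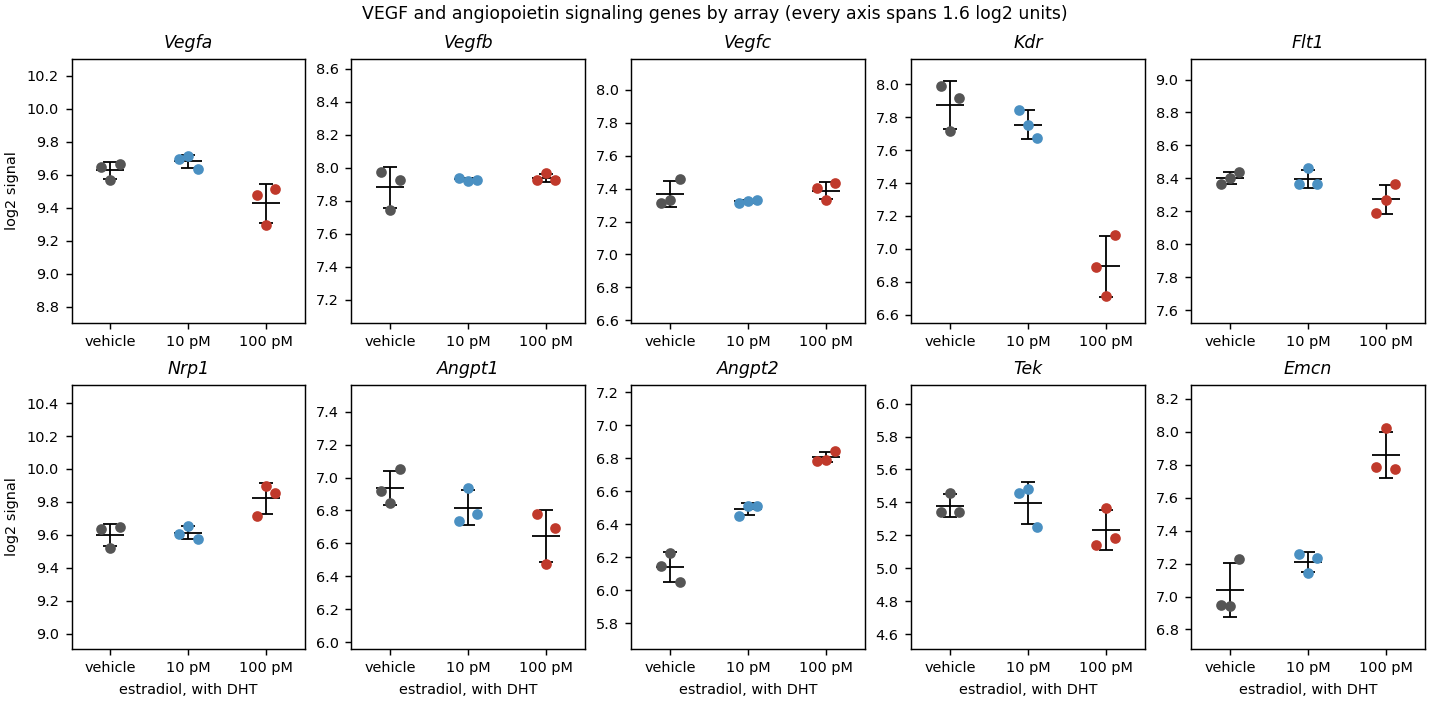
Log2 signal of each member (vertical axis, spanning 1.6 log2 units in every panel) in vehicle, 10 pM and 100 pM estradiol, all with DHT. Each point is 1 array, and the black marks give the group mean with its SD (n = 3). The 100 pM arrays of Kdr lie between 6.71 and 7.08, below all others, and those of Emcn (7.77 to 8.02) and Angpt2 (6.79 to 6.84) lie above all others.

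Promoter sequences are shown for the receptor pair Kdr and Flt1, of which Kdr fell and Flt1 did not pass, and for Emcn, which rose. Of the 10 members, 8 had a promoter in the RefSeq table used (build GRCm38.p6), and the others, Angpt1 and Angpt2, are named only. The 250 bases before the annotated start are printed 5′ to 3′ on the strand of the gene, at chr5:75978456-75978705 (minus strand) for Kdr, chr5:147726012-147726261 (minus strand) for Flt1 and chr3:137340828-137341077 (plus strand) for Emcn. Capitals mark GC boxes (GGGCGG) and estrogen response element half-sites (GGTCA), each read on both strands.
Kdr: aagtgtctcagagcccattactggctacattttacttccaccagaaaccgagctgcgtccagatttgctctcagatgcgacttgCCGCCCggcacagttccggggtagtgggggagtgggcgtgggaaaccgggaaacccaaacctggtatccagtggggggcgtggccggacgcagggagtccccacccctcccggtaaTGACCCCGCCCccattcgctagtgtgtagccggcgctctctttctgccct
Flt1: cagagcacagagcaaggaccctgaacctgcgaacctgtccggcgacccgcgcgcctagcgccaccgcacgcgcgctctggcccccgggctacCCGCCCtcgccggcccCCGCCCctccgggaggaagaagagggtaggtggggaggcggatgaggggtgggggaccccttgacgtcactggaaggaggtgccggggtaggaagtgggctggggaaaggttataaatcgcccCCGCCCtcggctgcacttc
Emcn: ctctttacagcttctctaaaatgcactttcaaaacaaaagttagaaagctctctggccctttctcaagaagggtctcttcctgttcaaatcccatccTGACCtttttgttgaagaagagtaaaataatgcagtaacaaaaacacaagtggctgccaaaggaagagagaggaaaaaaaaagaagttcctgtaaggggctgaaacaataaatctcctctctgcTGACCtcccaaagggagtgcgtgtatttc

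In these windows, the letters G and C made up 61.6% of the Kdr promoter, 70.4% of that of Flt1 and 40.8% of that of Emcn, against a median of 52.4% over 32851 promoters. Kdr held 2 GC boxes and 1 half-site, which directly precedes the GC box nearer the start without overlapping it. Flt1 held 3 GC boxes and 0 half-sites, and Emcn held 0 GC boxes and 2 half-sites. A GC box was found in 32.7% of all promoters and a half-site in 35.2%. The full palindromic estrogen response element (GGTCANNNTGACC, which contains the half-site) was found in 0.0639% of promoters and in none of the 9 windows of the 8 members. Kdr also held 2 hypoxia response cores (ACGTG or GCGTG, in 38.6% of promoters), and Flt1 and Emcn held 1 each. These matches describe letters in a short window and are not binding sites.

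Kdr encodes the principal signaling receptor for VEGFA. Its log2 signals were 7.99, 7.71 and 7.91 in vehicle, 7.84, 7.75 and 7.67 at 10 pM, and 6.89, 6.71 and 7.08 at 100 pM. The 100 pM arrays lay below all others, and vehicle and 10 pM arrays overlapped. Group means were 7.87 ± 0.14, 7.76 ± 0.09 and 6.90 ± 0.19 (SD, n = 3). The difference at 100 pM from vehicle was -0.98 ± 0.10 (SE, limma adjusted p = 0.00359), and by size it was the 6th largest fall among all genes. At 10 pM it was -0.12 ± 0.10 (95% interval -0.35 to 0.11, limma adjusted p = 1). Between the doses, Kdr at 100 pM differed from 10 pM by -0.86 ± 0.10 (limma adjusted p = 0.00951).

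Emcn encodes endomucin, a glycoprotein of venous and capillary endothelium. Its log2 signals were 6.95, 6.94 and 7.23 in vehicle, 7.26, 7.14 and 7.23 at 10 pM, and 7.78, 8.02 and 7.77 at 100 pM. The 100 pM arrays were the highest, and the third vehicle array was within the range of the 10 pM arrays. Group means were 7.04 ± 0.16, 7.21 ± 0.06 and 7.86 ± 0.14 (SD, n = 3). The difference from vehicle was 0.82 ± 0.09 at 100 pM (SE, limma adjusted p = 0.00399), the 9th largest rise among all genes. At 10 pM it was 0.17 ± 0.09 (95% interval -0.03 to 0.38, limma adjusted p = 1), or 21.1% of the difference at 100 pM. From 10 pM to 100 pM Emcn rose by 0.65 ± 0.09 (limma adjusted p = 0.0155). When the arrays numbered 2 of vehicle and of 100 pM were both left out, the difference at 100 pM from vehicle was 0.69 (limma adjusted p = 0.0502).

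Angpt2 encodes angiopoietin 2, the context-dependent antagonist of Tie2. Its log2 signals were 6.15, 6.22 and 6.05 in vehicle, 6.45, 6.51 and 6.51 at 10 pM, and 6.79, 6.79 and 6.84 at 100 pM. The groups did not overlap, and the order was vehicle, 10 pM, 100 pM. Group means were 6.14 ± 0.09, 6.49 ± 0.04 and 6.81 ± 0.03 (SD, n = 3). Angpt2 rose by 0.67 ± 0.05 at 100 pM against vehicle (SE, limma adjusted p = 0.00175) and by 0.31 ± 0.05 from 10 pM to 100 pM (limma adjusted p = 0.0242). At 10 pM it differed from vehicle by 0.35 ± 0.05 (95% interval 0.24 to 0.46), which is 52.8% of the difference at 100 pM. That difference did not pass the adjusted threshold (unadjusted p = 5.36e-05, limma adjusted p = 0.356). Angpt2 is among the genes that the study itself had picked from these arrays, so its direction is no independent evidence.

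**Figure D2:**
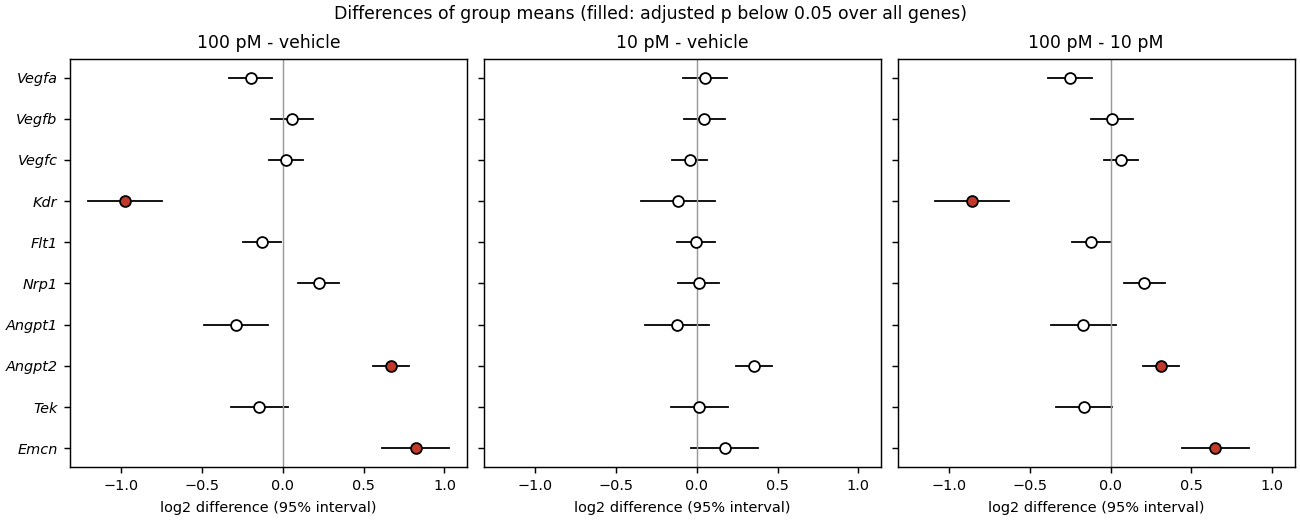
Log2 differences of group means (horizontal axis) for the 10 members in the 3 comparisons. Circles are estimates, lines are 95% intervals of the limma fit, and filled circles passed an adjusted p below 0.05 over all genes. Kdr, Angpt2 and Emcn are filled in both comparisons with 100 pM, and no member is filled at 10 pM against vehicle.

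Angpt1, which encodes the Tie2 agonist angiopoietin 1, had log2 signals of 6.92, 6.85 and 7.05 in vehicle, 6.74, 6.94 and 6.78 at 10 pM, and 6.78, 6.47 and 6.69 at 100 pM. The 100 pM arrays lay below the vehicle arrays, and the 10 pM arrays overlapped with both. The difference at 100 pM from vehicle was -0.29 ± 0.09 (95% interval -0.49 to -0.09) and did not pass (unadjusted p = 0.00928, limma adjusted p = 0.231). Within each array, the log2 ratio of Angpt2 to Angpt1, set to a mean of 0 in vehicle, was 0.51, 0.38 and 0.53 at 10 pM and 0.81, 1.12 and 0.95 at 100 pM, against -0.20 to 0.18 in vehicle. The change of this ratio was not tested, and it follows from the values of both genes given above.

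Tek, the receptor for both angiopoietins, had log2 signals of 5.34, 5.46 and 5.34 in vehicle, 5.46, 5.48 and 5.25 at 10 pM, and 5.14, 5.37 and 5.19 at 100 pM. The groups overlapped. The difference at 100 pM from vehicle was -0.15 ± 0.08 (95% interval -0.32 to 0.03, limma adjusted p = 0.55). Tek was the dimmest member, and its signal lay within the range of olfactory receptor genes described below, so a change could be missed.

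Among the VEGF ligands, Vegfa had log2 signals of 9.65, 9.57 and 9.67 in vehicle, 9.70, 9.71 and 9.64 at 10 pM, and 9.48, 9.29 and 9.51 at 100 pM. The 100 pM arrays were below all others, while vehicle and 10 pM overlapped. The difference at 100 pM was -0.20 ± 0.06 from vehicle (95% interval -0.34 to -0.06, limma adjusted p = 0.225) and -0.25 ± 0.06 from 10 pM (95% interval -0.39 to -0.12, limma adjusted p = 0.124), neither past the threshold. The second 100 pM array was the lowest, and without it the difference from vehicle was -0.13 (limma adjusted p = 0.425). At 10 pM Vegfa differed from vehicle by 0.05 ± 0.06 (95% interval -0.08 to 0.19, limma adjusted p = 1).

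Vegfb, whose product binds FLT1 but not KDR, ranged from 7.74 to 7.98 in vehicle, from 7.92 to 7.94 at 10 pM and from 7.93 to 7.97 at 100 pM. Vegfc, a lymphatic growth factor, ranged from 7.31 to 7.46 in vehicle, from 7.31 to 7.33 at 10 pM and from 7.33 to 7.43 at 100 pM. The groups of both genes overlapped. Their differences at 100 pM from vehicle were 0.06 ± 0.06 (95% interval -0.07 to 0.19, limma adjusted p = 0.768) for Vegfb and 0.02 ± 0.05 (95% interval -0.09 to 0.13, limma adjusted p = 0.914) for Vegfc.

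Flt1 had log2 signals of 8.36, 8.40 and 8.44 in vehicle, 8.36, 8.46 and 8.36 at 10 pM, and 8.19, 8.27 and 8.36 at 100 pM. The third 100 pM array was at the level of the first vehicle array, so the groups overlapped. The difference at 100 pM from vehicle was -0.13 ± 0.05 (95% interval -0.24 to -0.01, limma adjusted p = 0.422). Within each array, the log2 ratio of Kdr to Flt1, set to a mean of 0 in vehicle, was 0.01, -0.18 and -0.16 at 10 pM and -0.77, -1.03 and -0.75 at 100 pM, against -0.16 to 0.16 in vehicle. The change of this ratio was not tested either, and it follows from the values of Kdr and Flt1 above.

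Nrp1, the co-receptor of VEGFA and semaphorin 3A, had log2 signals of 9.63, 9.52 and 9.65 in vehicle, 9.61, 9.65 and 9.58 at 10 pM, and 9.72, 9.90 and 9.85 at 100 pM. The 100 pM arrays were above all others. The difference at 100 pM was 0.22 ± 0.06 from vehicle (95% interval 0.09 to 0.35, limma adjusted p = 0.14) and 0.21 ± 0.06 from 10 pM (95% interval 0.08 to 0.34, limma adjusted p = 0.183). It did not pass with all arrays, and without the first 100 pM array it was 0.27 with a limma adjusted p = 0.0499 against vehicle.

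Arrays of 100 pM and vehicle did not overlap for 6 of the 10 members (Angpt1, Angpt2, Vegfa, Kdr, Nrp1 and Emcn), against 12.5% of all genes. In all such counts a tie, as in Flt1, was taken as overlap. The median size of the difference was 0.21 over the members and 0.05 over all genes. In the signed values 5 members were higher and 5 lower, with a median of -0.05 over the members and 0.00 over all genes. At an unadjusted p below 0.05 stood 7 members and 10.9% of all genes. The Kdr call was lost when the spread was estimated without the 10 pM arrays (adjusted p = 0.0535) and in the one-way analysis of variance without pooling over genes (adjusted p = 0.058), as was that of Emcn (adjusted p = 0.0608 and 0.0627), while that of Angpt2 was kept in all 21 alternatives tried.

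**Figure D3:**
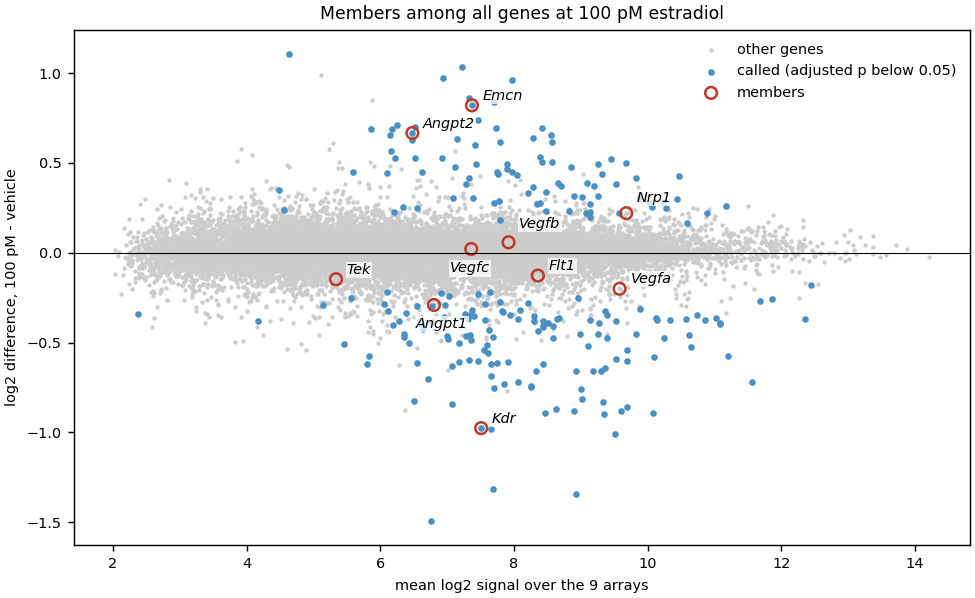
Mean log2 signal over the 9 arrays (horizontal axis) and log2 difference of 100 pM from vehicle (vertical axis) for all 19938 genes. Blue points passed an adjusted p below 0.05, and red circles are the 10 members. Kdr at -0.98 and Emcn at 0.82 lie near the edges of the distribution, and Vegfb and Vegfc lie close to 0.

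At 10 pM against vehicle 0 of 10 members passed, and 0% of all genes did (limma, adjusted p below 0.05). The count of members was also 0 in the pairwise t tests without pooling over genes. At an unadjusted p below 0.05 stood 1 member, Angpt2, and 3.54% of all genes. Its arrays were also the only ones of a member that did not overlap between 10 pM and vehicle, which held for 5.93% of all genes. By size, the Angpt2 difference ranked 21st from the top over all genes.

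Between 100 pM and 10 pM, 2 members were called higher (Angpt2 and Emcn) and 1 lower (Kdr), against 0.226% and 0.607% of all genes (0.833% in either direction). This comparison shares the 100 pM arrays with the comparison of 100 pM against vehicle, and both doses share the vehicle arrays. Arrays did not overlap for 5 members, the called ones with Vegfa and Nrp1, against 12.3% of all genes. At an unadjusted p below 0.05 stood 6 members and 10.2% of all genes. Unlike the calls against vehicle, these could be lost when 1 array was left out. Without the first or the second 10 pM array 0 members were called, and without the third 1 was, Kdr. With 10 pM arrays 1, 2 and 3 left out in turn, limma adjusted p-values were 0.0566, 0.0549 and 0.04 for Kdr, 0.0688, 0.0869 and 0.0746 for Emcn, and 0.118, 0.0936 and 0.0913 for Angpt2. The Angpt2 call was also lost without the first vehicle array (adjusted p = 0.0566) and without any one of the 100 pM arrays (limma adjusted p = 0.0534, 0.0763 and 0.0684), although its difference stayed between 0.29 and 0.33.

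Over the 3 groups together, the limma F test called Angpt2 (adjusted p = 0.00384), Kdr (adjusted p = 0.00615) and Emcn (adjusted p = 0.00831), 3 of 10 members against 0.843% of all genes. At the study's own threshold, an unadjusted p below 0.01 in a one-way analysis of variance, the same 3 members passed, with 2.66% of all genes. After adjustment 0 members passed in that test, and 0.00502% of all genes did.

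Whether the receptor signals came with a change in endothelial cells was checked by markers. Fewer cells of a type and less RNA per cell cannot be told apart in bulk samples. Of 24 endothelial markers other than the members, 0 were called in any comparison. Of all genes, 1.13% were called at 100 pM against vehicle, 0% at 10 pM and 0.833% between the doses. The count of 0 is thus near the share over all genes. Only 13 of the 24 were above the olfactory receptor percentile described next, so a change in the other 11 could be missed. Their differences at 100 pM from vehicle lay between -0.13 and 0.15 with a median of 0.02. The summed linear signal of the list was 1608 to 1682 in vehicle, 1651 to 1685 at 10 pM and 1636 to 1711 at 100 pM, so the groups overlapped. The markers with the smallest p in that list were Eng (0.10 ± 0.06, limma adjusted p = 0.588), a TGF-beta co-receptor, and Ecscr (0.11 ± 0.07, limma adjusted p = 0.626).

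As a guide to the signal of silent genes, 1027 olfactory receptor genes had a median mean log2 signal of 3.81 and a 95th percentile of 5.59. Probes differ in how brightly they read, so this gives a range and not a limit of detection. Of the defining endothelial markers Pecam1, Cdh5, Cldn5, Esam, Tie1, Erg and Sox18, 3 of 7 were above that percentile, and their means lay between 5.24 and 6.30. Of the members 9 were above it, as were 67.3% of all genes, and Tek at 5.34 was not. Kdr at 7.51, Flt1 at 8.36 and Emcn at 7.37 were above that percentile, while Pecam1 at 5.48 and Cdh5 at 5.24, the genes for endothelial junction proteins, were below it. Single olfactory receptor genes read brighter, up to 8.54.

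**Figure D4:**
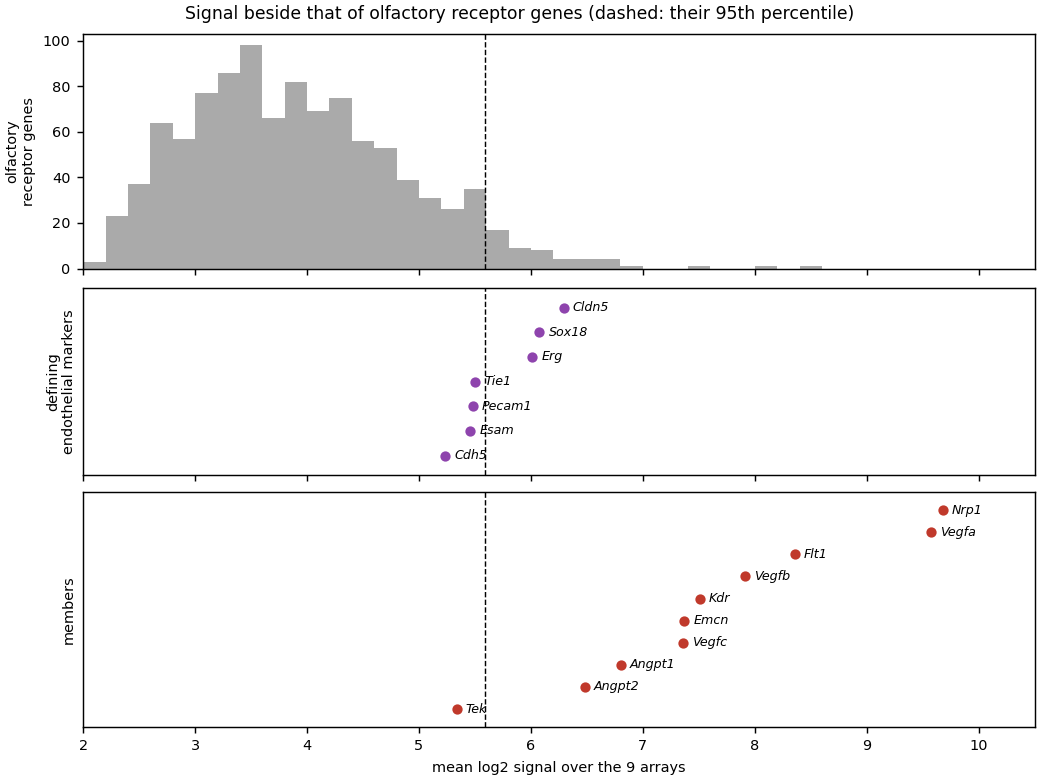
Mean log2 signal over the 9 arrays (horizontal axis) of 1027 olfactory receptor genes as a histogram, of 7 defining endothelial markers and of the 10 members. The dashed line is the 95th percentile of the olfactory receptor genes at 5.59. Tek and 4 of the endothelial markers lie below it, and 9 members lie above it.

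Of the mesenchymal markers, which stand for the labelled cell type, 12 of 12 were above the same percentile. Of these 4 fell at 100 pM against vehicle, where 0.687% of all genes fell: Pdgfra (-0.45 ± 0.04, limma adjusted p = 0.00359), Lum (-0.41), Dcn (-0.25) and Col3a1 (-0.18). Another 4 of the 12 had differences above 0, up to 0.13, and the list median was -0.02. Their summed linear signal was 63000 to 63690 in vehicle, 63210 to 64400 at 10 pM and 62070 to 63370 at 100 pM, so the groups overlapped. Among 10 pericyte markers 1 was called, Rgs5, a G protein regulator of mural cells. At 100 pM against vehicle it rose by 0.47 ± 0.05 (limma adjusted p = 0.00399) with a list median of -0.04, where 0.446% of all genes rose. The summed signal of 12 macrophage markers was 660.4 to 714.0 in vehicle, 612.3 to 704.8 at 10 pM and 558.3 to 582.0 at 100 pM. At 100 pM against vehicle 11 of 12 were below 0 (list median -0.12), and 5 of 12 were above the olfactory receptor percentile. In that comparison 1 was called lower, C1qb (-0.51 ± 0.09, limma adjusted p = 0.0433), against 0.687% of all genes. The lowest difference in the list was -0.88, that of a marker that was not called. The sum of 13 epithelial markers was 880.5 to 907.0, 870.3 to 886.6 and 947.2 to 995.7 in the same order. At 100 pM against vehicle 10 of 13 were above 0 (list median 0.06), and 7 of 13 were above that percentile. Against vehicle 0 were called, and 1, Krt18, was higher at 100 pM than at 10 pM (0.57, limma adjusted p = 0.0428), against 0.226% of all genes. Both sums at 100 pM lay outside the range of the other groups, in the same arrays in which Kdr fell and Emcn and Angpt2 rose, and their part in these results was not tested.

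The rest of the pathway was taken from lists of 71 measured genes, apart from the hypoxia-response genes described further on. At 100 pM against vehicle 3 of them rose and 0 fell, where 0.446% of all genes rose and 0.687% fell. The median difference was 0.02 against 0.00 over all genes. At 10 pM 0 were called, as were 0% of all genes. Between the doses 1 was higher and 0 were lower at 100 pM, against 0.226% and 0.607% of all genes. These shares of all genes hold for each of the lists that follow. Of 6 other ligands and receptors of both families (Pgf, Vegfd, Angpt4, Flt4, Nrp2 and Tie1) 0 passed. The nearest was Nrp2, the neuropilin of lymphatic and venous endothelium, with -0.32 ± 0.06 at 100 pM from vehicle (limma adjusted p = 0.0548), the opposite sign to Nrp1. Pgf, the placental growth factor that binds FLT1, differed by -0.12 ± 0.06 from vehicle and by -0.23 ± 0.06 from 10 pM (limma adjusted p = 0.549 and 0.22).

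Among 4 measured angiopoietin-like genes 0 passed, with Angptl7 at 0.38 ± 0.13 (limma adjusted p = 0.278) and Angptl1 at -0.36 ± 0.14 (limma adjusted p = 0.369). Of 23 measured genes of the signal relay below the receptors (adaptors, kinases and effectors) 0 passed, and their differences at 100 pM lay between -0.26 and 0.16. The smallest p-values were those of Hspb1 (0.16 ± 0.05, limma adjusted p = 0.317), a heat shock protein phosphorylated downstream of KDR, and Gipc1, a neuropilin-binding adaptor (0.13 ± 0.05 between the doses, limma adjusted p = 0.35). Of 20 genes known as targets of VEGF in endothelium 1 rose at 100 pM against vehicle, where 0.446% of all genes rose. It was Plau, the urokinase plasminogen activator (0.37 ± 0.06, limma adjusted p = 0.0292).

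Of 19 measured genes whose products bind, store or oppose VEGF 2 rose at 100 pM against vehicle, where 0.446% of all genes rose. Sema3a, a semaphorin that competes with VEGFA for neuropilin 1, rose by 0.30 ± 0.04 (limma adjusted p = 0.00483) and by 0.24 ± 0.04 from 10 pM to 100 pM (limma adjusted p = 0.0202). Thbs2, the anti-angiogenic thrombospondin 2, rose by 0.26 ± 0.04 (limma adjusted p = 0.0182). It differed by 0.18 ± 0.04 at 10 pM (limma adjusted p = 1), a comparison in which no gene passed. The study had itself picked Thbs2 from these arrays, so its direction is no independent evidence.

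Vegfa is a classical target of the hypoxia response, so 18 hypoxia-response genes were set beside it. Between 100 pM and 10 pM 5 of 18 were lower, against 0.607% of all genes. The 5 were Egln3 (-0.83 ± 0.10), Pdk1 (-0.56), Higd1a (-0.52), P4ha1 (-0.36) and Pgk1 (-0.34), with limma adjusted p between 0.0097 and 0.0386. The median of the 18 was -0.29, and Vegfa differed by -0.25. Against vehicle 0 of 18 were called at either dose, with medians of 0.11 at 10 pM and -0.16 at 100 pM. The study itself had found in these arrays that genes higher at 10 pM and lower at 100 pM were enriched for glycolysis. Where this list holds such genes, its direction is thus no independent evidence. The mean deviation of the list from its 9-array mean was -0.01, -0.01 and 0.03 in vehicle, 0.14, 0.14 and 0.12 at 10 pM, and -0.09, -0.27 and -0.05 at 100 pM. The second 100 pM array was lowest both for the list and for Vegfa (9.29), and the part of this array in the Vegfa values is given above. Pgk1 and Higd1a each have more than 1 probeset, of which the brightest is given.

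**Figure D5:**
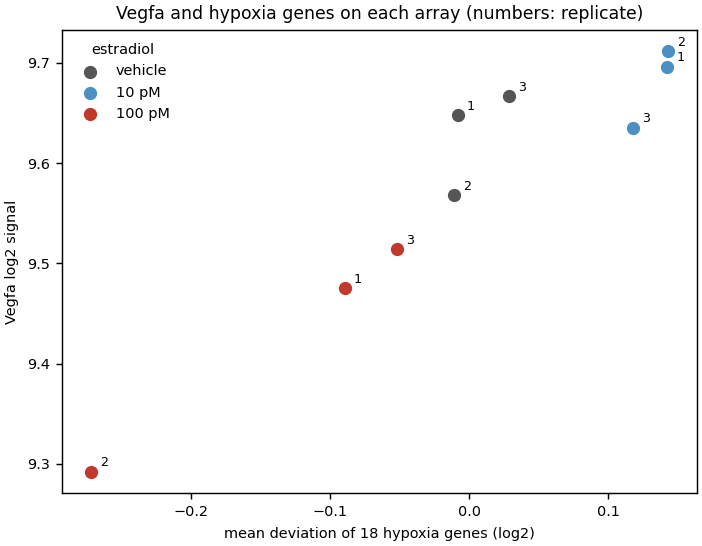
Mean deviation of 18 hypoxia-response genes from their 9-array means (horizontal axis, log2) and log2 signal of Vegfa (vertical axis) on each array, with the replicate number beside each point. The 10 pM arrays lie at 0.12 to 0.14 on the horizontal axis and the second 100 pM array at -0.27, where Vegfa was 9.29.

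The genes whose signal followed the called members most closely over the 9 arrays were found by Pearson r, as a description with no test. The arrays share their group changes, so r of the deviations from the group means is given with it. For Kdr the highest were Igfbp4 (r = 0.991, 0.867 for deviations), Clip4 (0.990, 0.840), Olfml3 (0.988, 0.895), Adgrg2 (0.988, 0.811) and Itm2a (0.988, 0.857), and the lowest was Ccnd1 (-0.989, -0.840), the cyclin D1 gene. For Emcn the highest were Nqo1 (r = 0.988, 0.846 for deviations), Fam110c (0.973, 0.643), Pappa (0.972, 0.672), Msmo1 (0.971, 0.846) and Tll1 (0.971, 0.641), and the lowest was Eln (-0.989, -0.907), which encodes elastin. For Angpt2 they were Plk1 (r = 0.971, 0.670 for deviations), Clca3a2 (0.967, 0.0393), Pgr (0.960, 0.405), Rangap1 (0.955, 0.688) and Zfp941 (0.955, 0.152), and the lowest was Mest (-0.982, -0.737). For Clca3a2 and Zfp941 the likeness to Angpt2 thus lay mostly in the group means. Pgr, the progesterone receptor and a known estrogen target, rose by 1.04 ± 0.11 at 100 pM (limma adjusted p = 0.00359). It differed by 0.46 ± 0.11 at 10 pM (limma adjusted p = 1), a comparison in which no gene passed. Pgr is also among the genes that the study had picked from these arrays, so its direction is no independent evidence.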

How the data were processed

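The authors converted scanned images to numerical tables with GCOS (GeneChip Operating Software) and the Gene Expression Console, per the labels and the study's methods. The deposited log2 values are 1 per probeset and array. That the scale is log2 follows from their range, and the normalization is not given in the sources used here. Array medians were 6.17 to 6.20. Precision is limited by having 3 arrays per group.

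The platform annotation, which is old, gave 1 symbol for 21789 of 35556 probesets. Those with several symbols (1621) and those it does not list (12146) were left unnamed. Symbols were updated by Entrez identifier for 21698 probesets. The brightest probeset per gene was used (19938 genes), with no filter on dim genes. Of the 168 other list entries 161 were measured.

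Group means were estimated in 1 linear model over the 9 arrays (limma 3.58.1, R 4.3.3, lmFit and eBayes, two-sided tests). The scripts were first tested on simulated data. Errors of differences are SE of that fit. Promoters came from RefSeq (GRCm38.p6), and figures were drawn with matplotlib 3.10.9. Members, lists, motifs and tests were chosen with earlier results of these data known. All members are named, and from each list up to 6 called genes or the 2 of smallest p, with Pgr and, for called members, the 5 most and 3 least alike genes (of the latter, 1 is printed). Samples were grouped by title. The labels give the ethanol concentration differently in different fields. Alternatives tried were scaling, filtering, probeset handling, moderation, array weights, a replicate block, fewer groups, another threshold and leaving out arrays. A further one was analysis of variance, with pairwise t tests for the comparisons, neither pooled over genes.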

Additional observations from a re-analysis of the deposited data

How the results depend on the processing

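The members' 30 differences were recomputed under 21 alternatives, or 627 values in all, since Tek fell out without the dimmest 30% of genes. Of these 575 kept direction and side of the threshold, 29 lost a call, 1 gained one and 22 changed sign, all 22 in differences that were not called. The count of members called at 100 pM against vehicle (3) was 1 when only the compared groups were fitted. It was 1 in the pairwise t tests without pooling over genes, and 3 to 4 without single arrays. Between the doses (3) it was 0 with all probesets tested, 0 with only the compared groups and 0 in those t tests. It was 1 without the second vehicle and second 100 pM arrays, and 0 to 3 without single arrays. In the F test (3) it was 0 in the analysis of variance. The cause was not tested.

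Sign changes outside the single-array runs were those of Flt1 at 10 pM from vehicle (0.000393 with median centring, 0.000741 with array weights), Nrp1 at 10 pM (-0.00559 with quantile normalization, -0.0282 without the second vehicle and second 100 pM arrays), and, without those arrays, Vegfb (-0.0257 at 100 pM from vehicle, -0.0223 at 10 pM, -0.00345 between doses). Without single arrays, the differences at 100 pM from vehicle ranged from -0.0116 to 0.106 for Vegfb and from -0.00632 to 0.0662 for Vegfc. Those at 10 pM from vehicle ranged from -0.0258 to 0.0889 for Tek, -0.0223 to 0.0953 for Vegfb, -0.0711 to 0.00138 for Vegfc, -0.0361 to 0.0145 for Flt1 and -0.0282 to 0.0331 for Nrp1, and that between the doses from -0.00345 to 0.0177 for Vegfb.

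With the replicate number as a block (replicate block), the Angpt2 difference between the doses of 0.31 was no longer called (adjusted p = 0.0646), members called between the doses were 2, and no other member's call changed. Same-numbered arrays deviated together with r between -0.11 and 0.20 (median -0.00), so the numbers were not taken to pair the samples. Over all genes, the 226 calls at 100 pM against vehicle were 10 with only the compared groups and 30 in the pairwise t tests without pooling over genes. They were 119 with all probesets tested, 343 without the dimmest 30% and 349 with trend and robust moderation.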

Other observations

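Identical values recurred across arrays. Of the 19938 genes, 49.3% had the same value to all deposited digits on 3 or more of the 9 arrays, and 27.8% on 4 or more. Among the members, Vegfb (7.92591) and Flt1 (8.36378) had 1 value on 4 arrays and Vegfc (7.33055) on 3 arrays, in each case with the shared value in all 3 groups. Angpt2 (6.51314) and Tek (5.33972) had 1 value on 2 arrays. Angpt1, Vegfa, Kdr, Nrp1 and Emcn had 9 different values each.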
